A study of Homo sapiens with 6 samples.

Results

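The YAP/TEAD target genes described here are CTGF (current symbol CCN2), CYR61 (CCN1), ANKRD1, AMOTL2, AMOTL1, AJUBA, F3, CRIM1, NT5E and AXL. They were chosen by symbol, with the changes of single genes between the same 2 groups of libraries already known, so their differences between the groups are a description. Calls and intervals given for them come from the fit over all genes and are no independent test. All 10 were found among the 28008 gene symbols of the count table, and 9 of them were among the 17026 genes that passed the filter on low counts. AXL did not pass. The libraries came from NCI-H660, an established neuroendocrine prostate cancer (NEPC) cell line, carrying a doxycycline-inducible short hairpin RNA against MUC1 in the pLKO-tet-puro vector after puromycin selection. DOX-negative cells were given 0.1% DMSO as vehicle (n = 3), and DOX-positive cells were given doxycycline at 500 ng/ml (n = 3). The titles alone separate the groups, since the treatment field of every sample reads wild-type. Both groups carry the hairpin and vector, and no library of cells without that hairpin but with doxycycline was analysed here, so an effect of the drug and an effect of the hairpin cannot be told apart. The RNA came from cells cultured in triplicate, and the length of the doxycycline exposure was not given in the labels.

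YAP (encoded by YAP1) and its paralog TAZ (encoded by WWTR1) are transcriptional coactivators that do not bind DNA themselves and act mainly through the TEAD family of DNA-binding factors. The Hippo kinases LATS1 and LATS2 phosphorylate YAP and TAZ and keep them out of the nucleus when cells are crowded or lack tension. Neuroendocrine carcinomas are known for low YAP1 expression. TEAD factors recognise the MCAT element, whose core is CATTCC, or GGAATG on the other strand.

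The core was searched in the 250 bases before each annotated start, on both strands, in the RefSeq promoter windows (GRCh38.p14), which held 11 windows for 8 of the 10 members. CYR61 and CRIM1 had no window. CTGF held 3 matches and ANKRD1 held 2, while AMOTL2, AJUBA and AXL held 1 match each, in 1 of their 2 windows. The core was absent from the windows of AMOTL1, F3 and NT5E, which says only that these letters are not in those bases. Among all 35116 windows, 11.9% held at least 1 match, 0.928% at least 2 and 0.0797% at least 3. The AP-1 element TGACTCA, or TGAGTCA on the other strand, was in the window of F3 and in 4.2% of all windows, and the CArG box bound by SRF was in none of the members' windows and in 1.16% of all windows. Such matches are descriptions of sequence and were not shown to be bound in these cells. The windows of CTGF, which had the most TEAD cores, and of ANKRD1, F3 and AMOTL1, which were called in the fit described below, are shown 5′ to 3′ on the strand of the gene, with TEAD cores and the AP-1 element in capitals.

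CTGF, chr6:131951373-131951622, minus strand: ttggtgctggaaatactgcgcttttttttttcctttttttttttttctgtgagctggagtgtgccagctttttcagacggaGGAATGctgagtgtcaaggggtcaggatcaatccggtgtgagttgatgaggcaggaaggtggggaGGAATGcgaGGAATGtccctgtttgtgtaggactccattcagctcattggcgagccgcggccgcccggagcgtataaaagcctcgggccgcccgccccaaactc

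ANKRD1, chr10:90921088-90921337, minus strand: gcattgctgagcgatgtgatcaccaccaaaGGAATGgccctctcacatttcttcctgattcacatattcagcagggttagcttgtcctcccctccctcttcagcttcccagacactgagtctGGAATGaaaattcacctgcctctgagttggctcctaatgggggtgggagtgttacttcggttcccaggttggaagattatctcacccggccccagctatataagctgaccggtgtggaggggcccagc

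F3, chr1:94541760-94542009, minus strand: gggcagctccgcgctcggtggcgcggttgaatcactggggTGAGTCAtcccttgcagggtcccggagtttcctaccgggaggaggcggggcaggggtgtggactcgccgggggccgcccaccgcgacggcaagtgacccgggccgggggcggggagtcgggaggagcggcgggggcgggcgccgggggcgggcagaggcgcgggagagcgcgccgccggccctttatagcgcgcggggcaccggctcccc

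AMOTL1, chr11:94768106-94768355, plus strand: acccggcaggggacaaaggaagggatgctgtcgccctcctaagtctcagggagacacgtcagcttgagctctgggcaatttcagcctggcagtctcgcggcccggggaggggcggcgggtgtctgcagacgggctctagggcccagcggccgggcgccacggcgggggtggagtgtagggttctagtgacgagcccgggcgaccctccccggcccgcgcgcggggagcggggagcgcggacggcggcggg

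The CTGF matches began 169, 104 and 95 bases before the start, and the last pair was separated by only a few bases. The ANKRD1 matches began 220 and 128 bases before the start. The AP-1 element of F3 began 210 bases before its start. The AMOTL1 window belongs to a start that lies inside the RefSeq gene, which spans 94706460 to 94876748 on chromosome 11.

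Total counts ranged from 47620696 to 74061121 per library, so counting error matters mainly for the least abundant members. MUC1, the target of the hairpin, was checked first. It was at 88.2, 90.2 and 79.6 CPM (read counts adjusted for library size by TMM) in the DOX-negative libraries and at 36.7, 37.2 and 29.9 CPM in the DOX-positive libraries. It fell by 1.32 on the log2 scale (SE 0.096, adjusted p = 0.00017). The neuroendocrine and epithelial identity of the line was evident from its markers, with EPCAM at 359.5 CPM and CHGA at 221 CPM in the DOX-negative mean, while the luminal marker KLK3 was at 0 counts in every library. Of the 7 neuroendocrine markers, NCAM1 (-0.50) and INSM1 (-0.45) fell. The other 5 were not called. Their log2 fold changes were -0.20 (CHGA), 0.29 (CHGB), -0.029 (SYP), 0.13 (ENO2) and 0.10 (SCG3). In TPM, which also corrects for gene length, the 9 fibroblast markers summed to between 2.41 and 3.48 TPM without DOX and between 2.46 and 3.65 TPM with it. For 6 of them no library reached 10 counts, and COL3A1 and THY1 were at 0, but COL1A1 (0.60) and LUM (1.06) rose. COL1A2, the most abundant of the 9 by mean count, had lower values in all DOX-positive libraries (-0.71, SE 0.27, adjusted p = 0.20) and was not called. The 6 endothelial markers summed to between 0.326 and 0.518 TPM without DOX and between 0.720 and 0.816 TPM with it. VWF (0.97) and CDH5 (0.94) rose, and PECAM1, CLDN5, TEK and EMCN stayed under 10 counts. The 5 blood markers summed to between 0.317 and 0.427 TPM and between 0.529 and 0.719 TPM, with CD68 (0.78) the gene that rose and PTPRC, CD3E and LYZ under 10 counts. The part of these marker changes in the results below was not tested. In bulk RNA, more cells of a type and more RNA per cell cannot be told apart.

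Of the 9 members tested, 4 were called by edgeR at an adjusted p under 0.05, all of them higher with DOX, namely ANKRD1, F3, CYR61 and AMOTL1. Across all 17026 tested genes 4.87% were called, 2.91% as higher and 1.96% as lower. Because this contrast was in view when the members were chosen, nothing is read from the difference between these shares. The median log2 fold change of the 9 members was 0.31, against 0.00034 for all tested genes. In 6 of the 9 members every DOX-positive library was above every DOX-negative library, an arrangement found in 14.8% of all tested genes (and in 13.3% the reverse). The other 3 tested members, AMOTL2, CRIM1 and NT5E, overlapped between the groups.

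**Figure D1:**
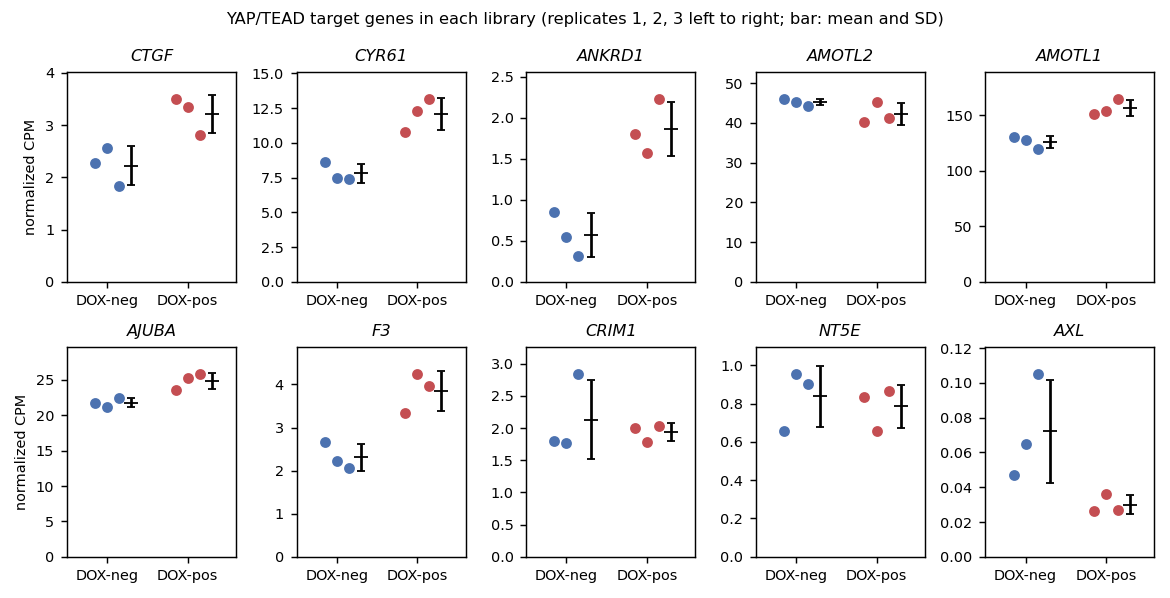
Normalized CPM of the 10 members in each library, with a linear axis from 0 in every panel. Blue points are DOX-negative and red points DOX-positive libraries, with replicates 1 to 3 from left to right, and the bar beside them is the mean ± SD (n = 3). CTGF, CYR61, ANKRD1, AMOTL1, AJUBA and F3 were separate between the groups, AMOTL2, CRIM1 and NT5E overlapped, and AXL rested on 2 to 5 counts per library.

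The secreted members are the matricellular proteins CTGF and CYR61, which bind integrins and heparan sulfate in the extracellular matrix and are the targets most often used as a readout of YAP. CTGF (chromosome 6, 131948176 to 131951372) was at 2.27, 2.57 and 1.83 CPM in DOX-negative replicates 1, 2 and 3 and at 3.49, 3.35 and 2.81 CPM in DOX-positive replicates 1, 2 and 3. The groups did not overlap, but the lowest DOX-positive library was only 1.09 times the highest DOX-negative library. The change was 1.44-fold, a log2 fold change of 0.52 (SE 0.16, 95% interval 0.18 to 0.87), and CTGF was not called. CTGF overlaps an antisense transcript (CCN2-AS1 in RefSeq), and although the library kit keeps strand, the strand setting of the counting was not stated, so reads of that transcript may be included. The same holds for AMOTL1 and AXL, which also overlap antisense genes in GENCODE 29. AJUBA overlaps a protein-coding gene model on its own strand, AL132780.3, so its count is uncertain too.

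CYR61 (chromosome 1, 85580761 to 85583950) was the more abundant of the pair. It was at 8.59, 7.47 and 7.37 CPM without DOX and at 10.8, 12.3 and 13.1 CPM with DOX. Its lowest DOX-positive library was 1.26 times its highest DOX-negative library, and the groups were well separated relative to SDs of 0.678 and 1.18 CPM. The change was 1.54-fold, with a log2 fold change of 0.63 (SE 0.11, 95% interval 0.39 to 0.86).

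ANKRD1 encodes an ankyrin repeat protein that resides in the nucleus and in the sarcomere of muscle and responds to stretch. ANKRD1 (chromosome 10, 90912096 to 90921087) had the largest change of the members tested, at 0.845, 0.55 and 0.315 CPM without DOX and 1.80, 1.56 and 2.22 CPM with DOX. These values rested on 54, 34 and 15 counts and on 136, 86 and 164 counts. The DOX-negative libraries differed among themselves by 2.68 times (CV 46.6%), and the exact Poisson 95% intervals of replicates 1 and 3, at 0.635 to 1.10 and 0.176 to 0.52 CPM, did not overlap. These intervals cover counting error only. The gap between the groups was larger, since the lowest DOX-positive library was 1.85 times the highest DOX-negative library. The change was 3.19-fold, with a log2 fold change of 1.67 (SE 0.27, 95% interval 1.08 to 2.27). Leaving out 1 library moved it to between 1.41 and 2.08.

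The junctional and cytoskeletal members act back on the Hippo pathway. AMOTL1 and AMOTL2 are angiomotin-like scaffolds of tight junctions that bind YAP and hold it in the cytoplasm, and AJUBA is a LIM domain protein that binds and restrains LATS kinases. AMOTL1 was at 131, 128 and 119.9 CPM without DOX and at 151, 154 and 165 CPM with DOX. All DOX-positive libraries were higher. The change was small, 1.24-fold, with a log2 fold change of 0.31 (SE 0.072, 95% interval 0.15 to 0.47).

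Its paralog AMOTL2 (chromosome 3, 134355345 to 134375417) was at 45.9, 45.4 and 44.3 CPM without DOX and at 40.2, 45.3 and 41.2 CPM with DOX. DOX-positive replicate 2 lay within the DOX-negative range and the other two lay below it. The log2 fold change was -0.099 (SE 0.078, 95% interval -0.27 to 0.072). That interval did not overlap the interval of AMOTL1.

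AJUBA (chromosome 14, 22971177 to 22982551) was at 21.8, 21.1 and 22.4 CPM without DOX and at 23.5, 25.2 and 25.8 CPM with DOX. The groups were separate by a narrow margin, with the lowest DOX-positive library at 1.05 times the highest DOX-negative library. The change was 1.14-fold, a log2 fold change of 0.19 (SE 0.082, 95% interval 0.014 to 0.37), and AJUBA was not called.

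The members at the cell surface were divided. F3 encodes tissue factor, the receptor for factor VII that starts blood coagulation. F3 (chromosome 1, 94529173 to 94541759) was at 2.66, 2.21 and 2.06 CPM without DOX and at 3.33, 4.24 and 3.96 CPM with DOX. All DOX-positive libraries were above all DOX-negative libraries, the lowest by 1.25 times. The change was 1.65-fold, with a log2 fold change of 0.72 (SE 0.15, 95% interval 0.40 to 1.05).

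CRIM1 encodes a transmembrane protein that binds bone morphogenetic proteins. CRIM1 (chromosome 2, 36355778 to 36551135) was at 1.80, 1.76 and 2.84 CPM without DOX and at 2.00, 1.78 and 2.03 CPM with DOX. DOX-negative replicate 3 was above the other 5 libraries, and the log2 fold change of -0.12 (SE 0.19, 95% interval -0.54 to 0.30) became 0.12 without it. CRIM1 overlaps FEZ2 on the opposite strand, which had a mean of 493 counts per library against 126 for CRIM1, so with an unknown strand setting its count is uncertain.

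NT5E encodes CD73, the ectoenzyme that turns extracellular AMP into adenosine. NT5E (chromosome 6, 85450083 to 85495784) was sparse, at 0.657, 0.954 and 0.903 CPM without DOX and 0.833, 0.655 and 0.868 CPM with DOX. The libraries were mixed between the groups. The log2 fold change was -0.077 (SE 0.22, 95% interval -0.56 to 0.41). That interval did not reach the point estimates of F3, CYR61 or ANKRD1. It overlapped the ends of the intervals of F3 (0.40 to 1.05) and CYR61 (0.39 to 0.86), but not the interval of ANKRD1 (1.08 to 2.27). Overlap of intervals does not test a difference between genes, and differences between members were not tested.

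AXL encodes a receptor tyrosine kinase of the TAM family, whose ligand is GAS6. AXL (chromosome 19, 41219223 to 41261766) had 3, 4 and 5 counts in the DOX-negative libraries and 2 counts in each of the DOX-positive libraries. The DOX-positive sum of 6 counts against 12 gave a rate ratio of 0.424 with an exact 95% counting interval of 0.131 to 1.22. A difference of AXL was not detectable at this depth.

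**Figure D2:**
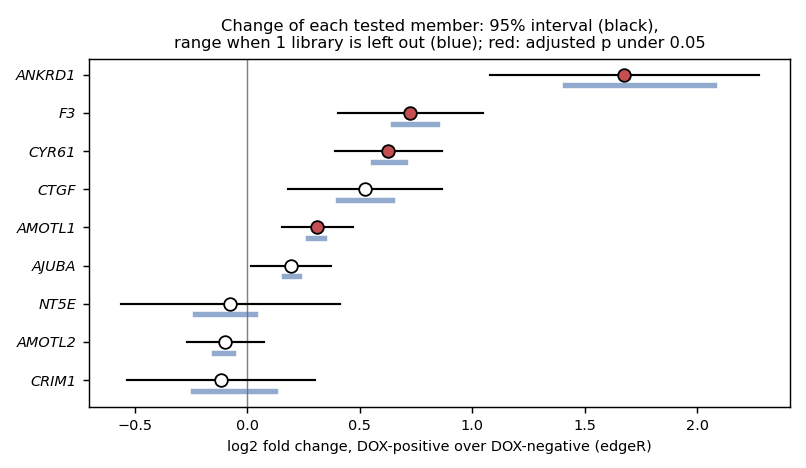
Log2 fold change (DOX-positive over DOX-negative, edgeR) of the 9 members tested, ordered by size. Black lines are 95% intervals, blue lines the range when 1 library was left out, and red points the members called at an adjusted p under 0.05. ANKRD1 at 1.67 lies apart from the rest, and the intervals of NT5E, AMOTL2 and CRIM1 include 0.

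These calls rested on the replicates unevenly. Without DOX-negative replicate 3, which had the fewest counts, 0 members were called by edgeR (5 had an unadjusted p under 0.05), and 58 of all genes were called. Without DOX-negative replicate 2, ANKRD1 was the only member called, among 127 genes called in all. Without DOX-negative replicate 1 or DOX-positive replicate 3 the members called were ANKRD1, CYR61 and F3, among 633 and 375 genes. With all libraries 829 genes were called. In each of these fits ANKRD1, F3, CYR61, CTGF, AMOTL1 and AJUBA had positive changes.

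TPM, which divides by gene length, allowed the members to be ordered by level. AMOTL1 was the most abundant at a mean of 8.46 TPM over the 6 libraries, followed by AMOTL2 at 4.55 TPM. AMOTL1 exceeded AMOTL2, and AMOTL2 exceeded CYR61, in 6 of 6 libraries. CYR61 (2.49 TPM) and AJUBA (2.44 TPM) had close means over all libraries, but their order differed by group. AJUBA was the higher in all 3 DOX-negative libraries (means 2.26 and 1.94 TPM) and CYR61 in all 3 DOX-positive libraries (means 3.04 and 2.63 TPM). Below them, F3 (0.734 TPM) exceeded CTGF (0.674 TPM) in 4 of 6 libraries, and CTGF exceeded ANKRD1 (0.367 TPM) in 6 of 6. ANKRD1 exceeded CRIM1 (0.196 TPM) in all 3 DOX-positive libraries but in only 1 of the 3 DOX-negative libraries, where its mean of 0.171 TPM was below the 0.200 TPM of CRIM1. CRIM1 exceeded NT5E (0.111 TPM) in 6 of 6 libraries. AXL was last at 0.0055 TPM. By mean TPM, AMOTL1 stood above 75.4% of the tested genes, CYR61 above 45.9%, CTGF above 24.6% and NT5E above 7.74%.

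**Figure D3:**
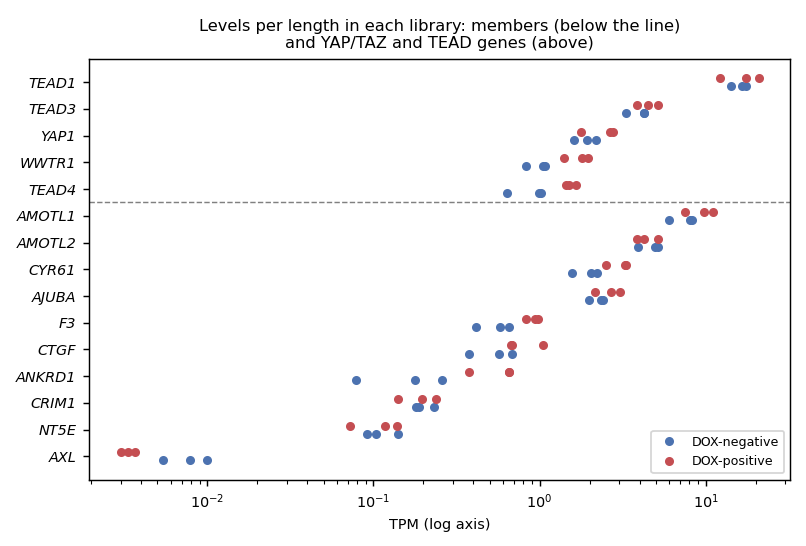
TPM of the 10 members (below the dashed line) and of YAP1, WWTR1 and 3 TEAD genes (above it) in each library, on a log axis. Blue points are DOX-negative and red points DOX-positive libraries (n = 3 each). Members range from AXL at a mean of 0.0055 TPM to AMOTL1 at 8.46 TPM, and TEAD1 at 16.5 TPM lies above all of them.

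In TPM the groups were less separate. F3, CYR61 and ANKRD1 were the 3 of the 9 members whose DOX-positive libraries all exceeded the DOX-negative libraries in TPM, an arrangement found in 5.16% of 16635 tested genes with a TPM value. CTGF was at 0.573, 0.687 and 0.378 TPM without DOX and at 1.05, 0.669 and 0.682 TPM with DOX, so DOX-negative replicate 2 was above the lower 2 of the DOX-positive libraries. AMOTL1 was at 8.06, 8.33 and 6.04 TPM and at 11.1, 7.51 and 9.74 TPM, with DOX-positive replicate 2 inside the DOX-negative range. The ratio of TPM to unscaled CPM, as a median over these members, varied from 0.115 to 0.163 between libraries and was lowest in DOX-negative replicate 3 and DOX-positive replicate 2. In the same libraries protein-coding genes held 16.1% and 16.6% of TPM, against 18.7% to 23.9% in the others. RN7SK, a short noncoding RNA, held 21.2% to 27.1% of TPM. Limma-trend on the deposited TPM called ANKRD1 alone among the members, and on TPM rescaled over protein-coding genes it called ANKRD1, CYR61 and F3.

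The factors that act on these targets were examined in a list of 29 YAP/TEAD and Hippo genes, of which 26 passed the filter. Of these, 4 were called, all higher with DOX. Across all tested genes 4.87% were called, 2.91% as higher. The list was written with earlier results of these data known, so nothing is read from the difference between these shares. The median log2 fold change of the 26 genes was 0.11. WWTR1 was at 11.1, 10.1 and 10.3 CPM without DOX and at 15.5, 18.2 and 20.6 CPM with DOX, with no overlap. It rose by 0.79 on the log2 scale (SE 0.11, adjusted p = 0.0048). YAP1 was at 22.3, 18.5 and 19.97 CPM and at 22.6, 22.9 and 29.3 CPM. Its groups were only just separate, and its log2 fold change of 0.30 (SE 0.11, 95% interval 0.047 to 0.55, adjusted p = 0.16) did not pass. The transcripts of both coactivators were thus detected in this line, YAP1 at a mean of 2.16 TPM and WWTR1 at 1.36 TPM.

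Among TEAD genes, TEAD4 rose from 3.31 ± 0.454 to 5.77 ± 0.823 CPM (SD, n = 3), or by 0.79 in log2 terms (SE 0.14, adjusted p = 0.013). TEAD1, the most abundant at 16.5 TPM, was at 286 ± 8.18 and 290.2 ± 24.7 CPM, with a log2 fold change of 0.022 (95% interval -0.15 to 0.19, adjusted p = 0.91). TEAD3 had a log2 fold change of 0.17 (95% interval -0.015 to 0.35, adjusted p = 0.28), and TEAD2 had too few counts to test. The other called genes were LATS2 (0.60, SE 0.14, adjusted p = 0.035), a Hippo kinase that is itself a YAP/TEAD target, and WWC2 (0.70, SE 0.12, adjusted p = 0.010), a scaffold related to KIBRA. WWTR1 and TEAD4 lost their calls in 4 and 5 of 17 alternatives, among them the fit without DOX-negative replicate 3. LATS2 lost its call in 9 and WWC2 in 6.

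A list of 40 further YAP/TEAD target genes was compared in the same fit. Of the 36 tested, 12 were called, 10 as higher and 2 as lower, and the median log2 fold change was 0.21. Across all tested genes 2.91% were called as higher and 1.96% as lower. The list was written with some of its genes, ADAMTS1 and FJX1 among them, already known to differ, so the count is not independent evidence. Those that rose included ADAMTS1, a secreted metalloproteinase (1.68, SE 0.20, adjusted p = 0.0024), AREG, an EGF receptor ligand (2.82-fold, adjusted p = 0.0024), and CCDC80, a matrix protein (1.39, SE 0.24, adjusted p = 0.011). TNFRSF12A, the receptor for TWEAK, was at 3.99, 4.09 and 3.97 CPM without DOX and at 6.71, 8.27 and 9.37 CPM with DOX (1.01, SE 0.13, adjusted p = 0.0029). FJX1, a homolog of a Golgi kinase of Drosophila, went the other way, from 3.11, 3.80 and 3.74 CPM to 1.42, 1.55 and 1.03 CPM, and fell by 1.42 on the log2 scale (SE 0.17, adjusted p = 0.0024). GAS6 also fell. Other called genes, named after their values were seen, were THBS1 (0.92), GADD45B (0.62), LATS2 (0.60), SH2D4A (0.49) and GADD45A (0.33), and all of these rose. Without DOX-negative replicate 2 or 3, the number called was 6 in each case.

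**Figure D4:**
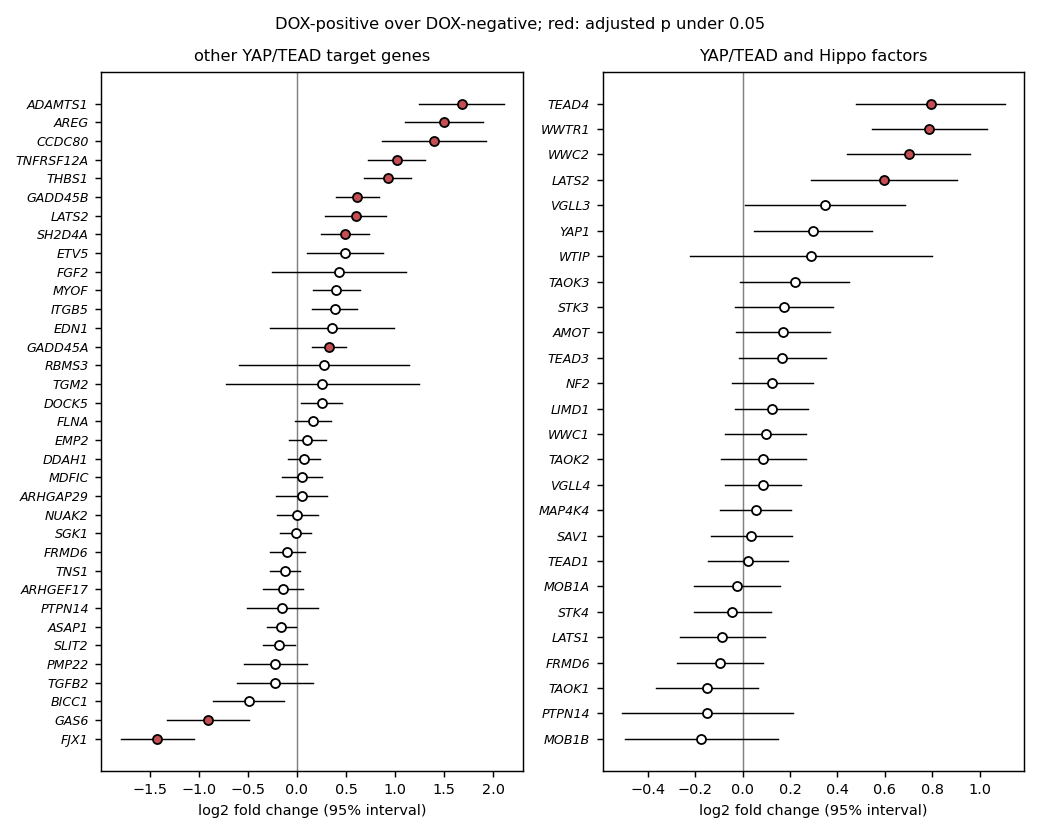
Log2 fold change with 95% interval of genes of the 2 lists, further YAP/TEAD target genes (left, 35 of the 36 tested) and YAP/TEAD and Hippo factors (right, 26 genes). Red points are genes called by edgeR at an adjusted p under 0.05, 9 higher and 2 lower on the left and 4 higher on the right. Across all tested genes 2.91% were called as higher and 1.96% as lower.

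The relatives and partners of the members gave 3 called genes of 26 tested, 2 higher and 1 lower. Across all tested genes 4.87% were called. This list too was written with earlier results known, so nothing is read from its count. NOV (CCN3), of the same family as CTGF and CYR61, rose from 5.75 ± 0.669 to 7.92 ± 0.559 CPM (SD, n = 3), or by 0.46 in log2 terms (SE 0.12, adjusted p = 0.046), a call lost in 11 of 17 alternatives. In the TAM family, where AXL was near 0, TYRO3 rose from 4.90 ± 0.679 to 7.35 ± 1.03 CPM (0.58, SE 0.14, adjusted p = 0.036), and MERTK was at 22.8 ± 1.75 and 25.9 ± 2.32 CPM (0.19, adjusted p = 0.29). The TAM ligand GAS6 was far more abundant, at 297, 357 and 360 CPM without DOX and 204, 211 and 128 CPM with DOX, and fell by 0.90 on the log2 scale (SE 0.18, adjusted p = 0.032). The calls of TYRO3 and GAS6 were lost in 8 and 6 of 17 alternatives. AMOT, the founding angiomotin, differed by 0.17 on the log2 scale (SE 0.091, adjusted p = 0.31).

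**Figure D5:**
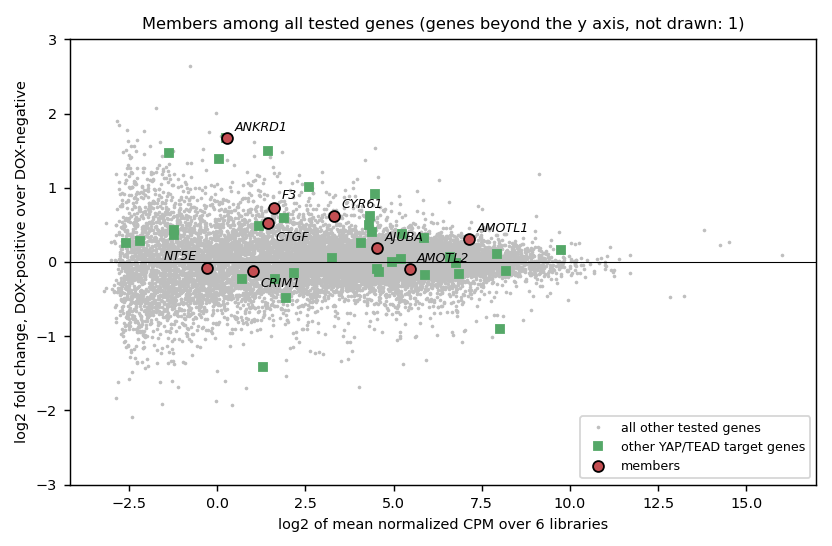
Log2 fold change against the log2 of mean normalized CPM for the tested genes. Red circles are the 9 members, green squares the 36 further YAP/TEAD target genes and grey points the other genes, with 1 gene beyond the axis limit of 3 not drawn. ANKRD1 is the highest of the members at 1.67, and AMOTL2, CRIM1 and NT5E lie within them near 0.

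The genes whose profile over the 6 libraries was most like the mean standardised profile of the members were TNFRSF12A (Pearson r = 0.999), ATP1B2 (0.996), DHRS3 (0.996), FOSL2 (0.996) and RHOB (0.995), out of 14578 candidates. The libraries fall into 2 groups, and r over 6 such libraries is a description only. AMOTL2 (r = -0.72), CRIM1 (-0.42) and NT5E (-0.38) correlated negatively with the mean of the other members, so the mean profile does not describe them. The log2 fold changes of these genes were between 0.48 for FOSL2 and 1.70 for ATP1B2. TNFRSF12A was also on the list of further targets.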

How the data were processed

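RNA-seq libraries of H660 cells (3 DOX-negative, 3 DOX-positive) were compared. Raw counts and TPM, both by gene symbol, were deposited by the authors. STAR, DESeq2 and GRCh38 (hg38) are named in the submitters' processing notes, whereas versions, annotation and the strand setting of the counting are not given in the sources used here. Column names were matched to sample titles. The counts were filtered by filterByExpr and fitted in R 4.3.3 with edgeR 4.0.16, using TMM factors and a robust quasi-likelihood test with Benjamini-Hochberg adjustment over all 17026 genes. Genes with an adjusted p below 0.05 are named as called. All log2 fold changes are DOX-positive over DOX-negative from this fit, SE come from the F statistic, and CPM are scaled by the TMM factors. Limma 3.58.1 and DESeq2 1.42.0 served as alternatives.

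The members, lists, naming rule and tests were chosen with earlier results of these data known. Named are all members, YAP1, WWTR1, TEAD1 to TEAD4, up to 6 called genes per list with the largest change, MUC1 and the 5 genes of most similar profile. Some listed genes are counted but not reported by name here. Lists were written from general knowledge, and some genes stand in more than 1 list. Sequences and positions are from RefSeq. Libraries came from triplicate cultures, so p-values measure the spread between these cultures, and the within-group pairs differed beyond counting error (chi-square per degree of freedom 15.6 to 95.1).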

Additional observations from a re-analysis of the deposited data

How the results depend on the processing

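The 4 called members and the median of 0.31 were recomputed under 17 alternatives, of which the fit of TPM rescaled over protein-coding genes was chosen after seeing the data. Scaling by RLE or not at all, both other count filters and limma-voom kept 4 members called and 670 to 1125 genes in all. DESeq2 also called 4 members, with a median of 0.247 and 1355 genes in all, and its median includes AXL, which edgeR filtered out. Limma-trend called 1 member on log2(TPM + 1), with a median of 0.219 and 137 genes in all, and 1 member on log2(TPM + 0.1), with 122 genes in all under a minimum mean of 0.1 TPM and 194 without it. On rescaled TPM 378 genes were called. The cause was not tested. Leaving out 1 library gave 0 to 4 called members, medians of 0.27 to 0.34 and 58 to 1035 called genes. Signs changed only in such fits, where CRIM1 ranged from -0.24 to 0.12, NT5E from -0.23 to 0.034 and TEAD1 from -0.031 to 0.091. With a replicate block, 4 members and 998 genes were called. The titles give same-numbered libraries a shared number and no stated pairing. Their deviations from the group means correlated at -0.54, 0.019 and -0.10, which cannot decide whether they were paired. The block changed no call of a member. Over the members, 131 of 153 values kept direction and call, 19 lost the call and 3 changed sign. For the 22 other named genes these numbers were 287 of 354, 66 and 1. Depth limited AXL, ANKRD1 and NT5E most, with 2, 15 and 36 counts in their lowest libraries.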
